A study of Callithrix jacchus with 4 samples.

Results

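The vascular endothelial growth factor (VEGF) and angiopoietin system was represented by 6 genes. They were the ligand gene *VEGFA* with its receptor genes *FLT1* and *KDR*, and the ligand genes *ANGPT1* and *ANGPT2* with their receptor gene *TEK*. They were chosen by name, and the 6 genes were found in both UMI tables, out of 32323 genes listed in all. Each was summed over the nuclei of each library and annotated cell type, which gave 7 cell types in 4 libraries. The nuclei came from primary visual cortex (V1) of adult marmosets. The injured cohort held 3 animals, each 1 library, whose V1 had been injected on 1 side with endothelin-1 (ET-1), a peptide that narrows blood vessels, 7 days before collection, and the dissected tissue took in the core and the penumbra of the lesion. The control cohort was 3 uninjured animals, given as 1 library in which nuclei carry no mark of their animal. No spread among these animals could be measured. Injured and control nuclei were also isolated by different protocols and sequenced at different facilities on different instruments, so injury and preparation cannot be told apart in any difference between the cohorts.

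VEGFA is a secreted factor that hypoxic cells release and that acts on endothelial cells. KDR (VEGF receptor 2) carries most of its growth and permeability signal, while FLT1 (VEGF receptor 1) binds the same ligand tightly and signals weakly, so that it acts in part as a decoy. ANGPT1, made largely by cells around the vessel, activates the endothelial receptor TEK (Tie2) and keeps vessels stable, and ANGPT2, stored in endothelial cells, is a context-dependent antagonist of the same receptor. In brain these genes are known for their part in the blood-brain barrier and in the new vessel growth that follows ischemia.

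There were 7500, 12527 and 9510 nuclei in injured replicates 1, 2 and 3, and 8610 in the control library. The median nucleus held 3531 to 4504.5 UMIs (unique molecular identifiers, each marking 1 captured transcript) in the injured libraries and 2117 in the control library. No more than 0.302% of the barcodes of the smaller library were shared by any 2 libraries. Levels are given as CPM, the UMIs of a gene scaled to counts per 1e6 UMIs of the same sum, and were not compared between genes because the tables are not scaled to transcript length. Each cell type was tested with edgeR's quasi-likelihood test over the 3 injured sums and the 1 control sum, with p-values adjusted over all genes tested. A call asked for an adjusted p under 0.01 and a fold change beyond 0.25 on the natural-log scale. It also asked that 10% of nuclei, in one cohort or the other, hold a UMI of the gene. The 6 genes made 42 pairs of gene and cell type, of which 40 passed the filter on low counts. *KDR* in Astro and in Oligo was not tested. Of the 40 pairs, 1 was called higher in injured nuclei and 4 were called lower. In Astro, OPC, Oligo and Microglia no member was called by edgeR, where 1, 2, 1 and 2 members had an unadjusted p below 0.05 and DESeq2 called 0, 0, 0 and 1. Over all genes tested, 1.12%, 0.061%, 0.619% and 0% were called higher and 0.378%, 0.00871%, 0.155% and 0% lower in these 4 cell types, and 2.6% and 2.2% were called higher in ExN and InN.

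The Endo label, where 5 of the 6 genes were highest in the injured libraries on average and 2 of the 6 in the control library, held different nuclei in the 2 cohorts. The study's clusters within it were read against lists of endothelial, mural and fibroblast genes. *CLDN5* and *CLEC14A* of the endothelial list and *LUM* of the fibroblast list were not listed for control, so control sums hold fewer genes. *CLDN5* alone stood at 3467 CPM in 1 of the injured clusters. In the control library, 155 of 181 Endo nuclei (85.6%) lay in a cluster led by *SLC6A13*, *C7*, *DCN* and other genes of fibroblasts, in which the fibroblast list summed to 13073 CPM and the endothelial list to 283 CPM. The other 26 nuclei lay in a cluster whose endothelial list summed to 10056 CPM, and no gene of the mural list had a UMI in it. In the injured libraries, 32.9%, 39.5% and 42.2% of Endo nuclei lay in a pair of clusters with endothelial list sums of 9420 and 11637 CPM, and 13.8%, 14.4% and 18.7% in a fibroblast-list cluster (13607 CPM). The mural list summed to 264 and 1861 CPM in the pair. The rest of the injured Endo nuclei, 53.3%, 46.1% and 39.2%, lay in a cluster of shallow nuclei (median 1150 UMIs) led by *HBB*, *NEFL* and *NEFM*. The endothelial and fibroblast lists were low there (326 and 278 CPM). The study's ExN markers summed to 5952 CPM in it, against 2754 and 860 CPM in the endothelial-list pair and 1034 CPM in the fibroblast-list cluster. This cluster is left unnamed. The label Endo is therefore kept here as the study's name for these nuclei, and values are given for the label and for its parts. Across the whole label 7 of 13 tested endothelial-list genes and 3 of 7 mural-list genes were called higher in injured Endo and 3 of 8 fibroblast-list genes lower. No macrophage-list gene of 7 was called in Microglia by edgeR (5 at an unadjusted p below 0.05), while DESeq2 called 2.

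**Figure D1:**
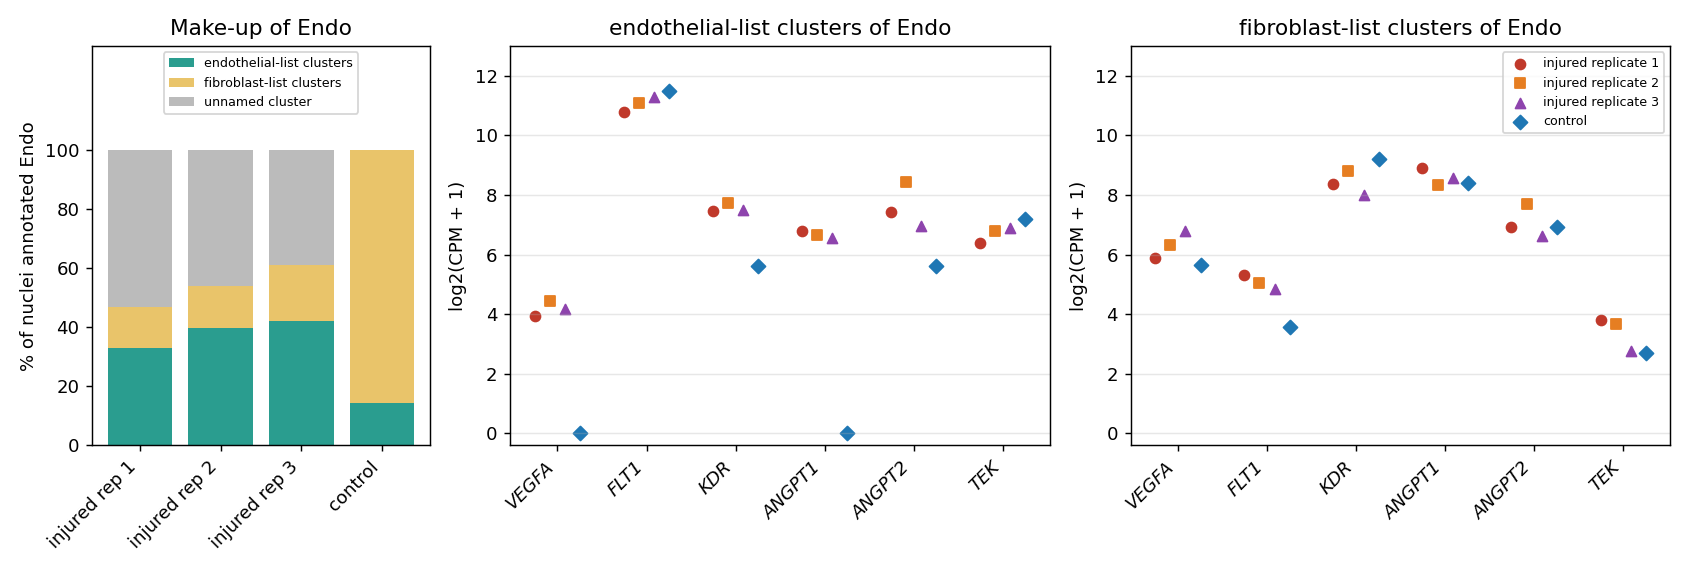
Left, the share of nuclei annotated Endo (%) in each library that lay in endothelial-list, fibroblast-list or unnamed clusters. Centre and right, log2(CPM + 1) of the 6 genes in each library within the endothelial-list and the fibroblast-list clusters. The control bar is 85.6% fibroblast-list, and *FLT1* in the endothelial-list clusters lies between 1777 and 2866 CPM in the 4 libraries.

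*FLT1*, the decoy-like VEGF receptor, was the 1 gene called higher in injured nuclei, in Endo. It summed to 836.1, 1190.8 and 1373.9 CPM in injured replicates 1, 2 and 3 and to 298.9 CPM in control (61 UMIs). Every injured library was above the control. The fitted log2 fold change was 2.06 ± 0.37 (SE), with an adjusted p of 0.00688 in edgeR, and over 11 alternatives it ranged from 0.20 to 3.57 with adjusted p from 2.44e-06 to 0.768. The call was kept in 8 of these 11. Of the 13205 genes tested in Endo, 4.19% were called higher and 1.99% lower. *FLT1* was also 1 of the genes by which the study named endothelial clusters, so its place in this cell type is given as a description.

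The same gene did not stand higher in the injured libraries once the endothelial-list clusters were taken alone. There it summed to 1777, 2177 and 2469 CPM in the injured replicates and to 2866 CPM in control (59 UMIs in 26 nuclei, exact Poisson 95% interval 2182 to 3697 for counting error only). The control value was above all 3 injured values, and the interval held the highest of them. The 2 cohorts were not alike in these clusters, since the mural list summed to 264 and 1861 CPM in the injured pair and to 0 in the control cluster. The log2 fold change fitted on these clusters was 0.35 ± 0.31 (adjusted p = 0.642 in edgeR) with TMM factors and -0.39 ± 0.31 (adjusted p = 0.706) with library size alone. The median over the 11257 genes of the fit with TMM factors was 5.42, and 3 of them were called higher. In the fibroblast-list clusters *FLT1* was 38.8, 31.7 and 28.02 CPM in the injured replicates against 10.9 CPM in control (2 UMIs), and in the unnamed cluster it was 15.5 to 30.1 CPM. Endo without the unnamed cluster kept the call, with a log2 fold change of 2.60.

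*KDR*, the main signalling receptor, was called lower in injured Endo. Its level was 143.9, 196.2 and 161.6 CPM in the injured replicates and 534.1 CPM in control (109 UMIs), and the groups did not overlap. The log2 fold change was -1.54 ± 0.24 (adjusted p = 0.00406 in edgeR). In the control library 108 of these 109 UMIs came from fibroblast-list nuclei, where *KDR* stood at 588.5 CPM and was among the 10 leading genes of the cluster, and 1 came from the endothelial-list nuclei. In injured fibroblast-list nuclei it was 328.0, 443.9 and 255.0 CPM, and the fitted difference there was -0.73 ± 0.32 (adjusted p = 0.237). In injured endothelial-list nuclei it was 175.1, 211.5 and 181.0 CPM, against 48.6 CPM from the 1 control UMI (interval 1.23 to 270.7 CPM), so a difference was not detectable at this depth. Without the unnamed cluster the Endo difference was -0.99 and lost the call (adjusted p = 0.0238). Over 11 other alternatives it ran from -1.77 to 2.57 with adjusted p from 1.43e-08 to 0.247, and was called in 10.

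Both receptors were found together in single nuclei of the injured endothelial-list clusters. *FLT1* and *KDR* each had a UMI in 30.1%, 36.2% and 34.7% of these nuclei, and in 1 of 26 control nuclei. Taken singly, *FLT1* had a UMI in 72.0%, 78.0% and 79.9% of the injured nuclei and *KDR* in 34.2%, 39.4% and 37.6%. Whether the joint shares exceed those of independent detection was not tested. With *TEK* and *ANGPT2* added, 4.17%, 8.16% and 4.78% of the injured nuclei held all 4 genes and 17.6%, 11.8% and 13.6% held none of them. The control nuclei were shallower (median 747.5 UMIs against 2778 to 2965), so these shares are not at equal depth.

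*TEK*, the angiopoietin receptor, summed to 41.5, 64.9 and 67.4 CPM in Endo of the injured replicates and to 19.6 CPM in control, from 4 UMIs. This difference was not called (log2 fold change 1.71 ± 0.68, adjusted p = 0.114). In the endothelial-list clusters it was 83.6, 109.5 and 117.8 CPM in the injured replicates, and 3 control UMIs gave 145.7 CPM (interval 30.1 to 425.9). Within Endo the gene was near absent elsewhere, at 5.80 to 12.9 CPM in the injured fibroblast-list cluster and 1.18 to 12.05 CPM in the unnamed cluster.

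Outside Endo, *TEK* was lower in every injured library than in the control library, in each of the 6 other cell types. These comparisons all share the 1 control library, and the share of all genes that do the same was not counted. In that library *TEK* differed little by cell type, at 13.3 to 34.7 CPM over the 7 labels, with Endo at 19.6 CPM. In inhibitory neurons (InN) it was 6.40, 5.31 and 4.21 CPM in the injured replicates and 34.7 CPM in control (107 UMIs), which was called (log2 fold change -2.62 ± 0.29, adjusted p = 0.000554 in edgeR). Its adjusted p was at most 0.00172 over 11 alternatives, of which 8 called it. Thinning, the limit of 2500 genes per nucleus and the marker-based nuclei filter ended the call, and the control share in the call itself was 10.09%, just above the limit of 10%. In excitatory neurons (ExN) it was 6.92, 7.13 and 6.08 CPM against 31.7 CPM (542 UMIs), a log2 fold change of -2.12 ± 0.18 with an adjusted p of 0.00131. That pair passed the limits on p and fold and missed the call on the share of nuclei alone, with a UMI in 9.40% of control nuclei where 10% was asked. The log2 fold changes in Astro, OPC (oligodendrocyte precursor cells), Oligo and Microglia were -1.97, -3.05, -2.32 and -2.92, from 4 to 19 control UMIs, and none was called (adjusted p = 0.0325 to 0.121). In the control library 77.5% of *TEK* UMIs came from ExN, 15.3% from InN and 0.57% from Endo, whereas Endo gave 37.0%, 51.1% and 61.1% of them in the injured replicates. These shares follow the number of nuclei too, since Endo was 2.10% of control nuclei and 13.6% to 17.7% of injured nuclei, and ExN 62.7% and 24.8% to 36.4%. Brought to 1000 UMIs per nucleus, the expected share of InN nuclei with a *TEK* UMI was 3.65% in control and 0.53 ± 0.05% (SD, n = 3) in the injured replicates.

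*ANGPT2*, the antagonist ligand, was spread over all 7 cell types. In Endo it was 109.3, 238.7 and 99.8 CPM in the injured replicates and 112.7 CPM in control, so the control value lay within the injured range. The log2 fold change there was 0.55 ± 0.66 (adjusted p = 0.591), and without injured replicate 2 it was -0.03. In ExN it was 38.2, 36.4 and 37.5 CPM against 65.4 CPM in control (1117 UMIs), and in InN 35.6, 36.4 and 30.9 CPM against 71.0 CPM (219 UMIs). Both were called lower, with log2 fold changes of -0.69 ± 0.12 (adjusted p = 0.00965) and -0.94 ± 0.18 (adjusted p = 0.00901). These adjusted p-values lie near the limit, and over the alternatives they ranged up to 0.0447 in ExN and 0.0320 in InN. Each call was kept in 7 of 11 alternatives. Thinning and leaving out injured replicate 1 ended both (adjusted p = 0.0447 and 0.0246 without that replicate). The limit of 2500 genes per nucleus and the marker-based nuclei filter also ended that in ExN (0.0151 and 0.0106), and DESeq2 and leaving out injured replicate 3 that in InN (0.0320 and 0.0225). Among all genes tested, 1.25% were called lower in ExN and 1.22% in InN. For ExN, 1 of the 6 genes was called lower, and for InN 2 of 6.

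On the RefSeq annotation of another marmoset assembly (calJac240_pri) *ANGPT2* lies inside the span of *MCPH1*, a gene of chromosome condensation. The level of *MCPH1* in ExN was 98.5 CPM on average in the injured replicates and 109.0 CPM in control (log2 fold change -0.03, adjusted p = 0.925), and in InN 107.4 and 114.1 CPM (0.02, adjusted p = 0.946). Both differences were smaller than their SE (0.18 and 0.15). On the same annotation 3 loci, 1 of them protein coding, overlap *FLT1* in part and 1 pseudogene overlaps *TEK* in part. Whether reads were shared between any of these was not tested.

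Within the endothelial-list clusters *ANGPT2* stood at 171.6, 347.7 and 124.4 CPM in the injured replicates, and the 1 control UMI there gave 48.6 CPM (interval 1.23 to 270.7). Injured replicate 2 was the highest of the 3 animals in these clusters, in the fibroblast-list cluster (204.8 against 120.8 and 96.6 CPM) and in Oligo (111.0 against 80.4 and 54.7 CPM). Injured endothelial-list nuclei with more mural than endothelial list UMIs also held *ANGPT2* (166 nuclei, 317.6 CPM, a UMI in 47.0%), beside 212.0 CPM in the 1551 nuclei with more endothelial list UMIs.

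*ANGPT1*, the stabilising ligand, was highest in Endo, then in Astro, in both cohorts. In Endo it was 147.6, 115.4 and 141.3 CPM in the injured replicates and 303.8 CPM in control (62 UMIs). This difference was not called (log2 fold change -1.04 ± 0.23, adjusted p = 0.0162), and over 10 alternatives its adjusted p ran from 0.00408 to 0.0271. All 62 control UMIs came from fibroblast-list nuclei, at 337.9 CPM, and in the injured fibroblast-list nuclei the gene stood at 479.1, 325.0 and 374.8 CPM, a range that holds the control value. In the injured endothelial-list clusters it was 93.4 to 110.2 CPM, and its level there differed between nuclei. The 166 nuclei with more mural than endothelial list UMIs gave 217 of its 578 UMIs, at 468.9 CPM and with a UMI in 44.0% of nuclei. The 1551 with more endothelial list UMIs gave 358, at 66.8 CPM and with a UMI in 12.5%.

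In astrocytes *ANGPT1* was 82.7, 78.6 and 51.9 CPM in the injured replicates and 55.5 CPM in control (48 UMIs). The control value lay inside the injured range, and the log2 fold change was 0.46 ± 0.32 (adjusted p = 0.370). The share of astrocyte nuclei with a UMI was 26.1%, 18.6% and 17.7% against 7.24% (exact binomial 95% interval 5.29% to 9.63%), but the median astrocyte held 3851 UMIs in the injured cohort and 1183 in control. At 1000 UMIs per nucleus the expected shares were 6.58% on average in the injured replicates and 5.15% in control. In InN it was 22.01, 33.2 and 19.3 CPM against 16.2 CPM (log2 fold change 0.74, adjusted p = 0.167).

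**Figure D2:**
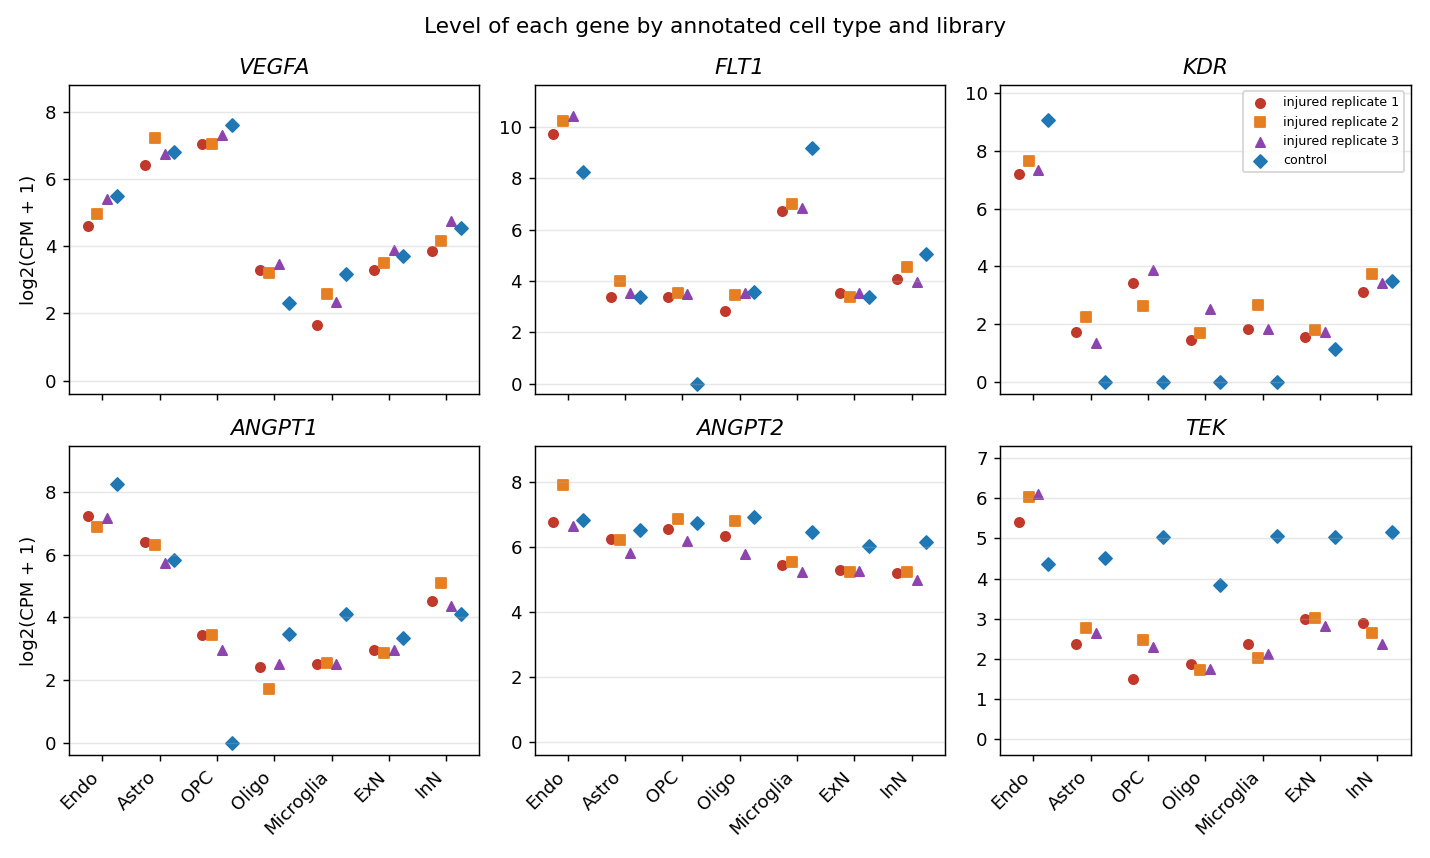
Each panel plots 1 gene as log2(CPM + 1) for the 7 annotated cell types, with 1 point per library (circle, square and triangle for injured replicates 1, 2 and 3, diamond for control). *VEGFA* is highest in OPC and Astro, *TEK* is lower in every injured library outside Endo, and a point at 0 marks a control sum without a UMI.

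*VEGFA*, the ligand, was highest in OPC and Astro in both cohorts and was not called in any cell type. In OPC it was 129.3, 129.9 and 156.6 CPM in the injured replicates and 192.6 CPM in control (36 UMIs), a log2 fold change of -0.34 ± 0.26 (adjusted p = 0.494). In Astro it was 84.1, 149.0 and 105.2 CPM against 111.0 CPM (96 UMIs), a log2 fold change of 0.14 ± 0.33 (adjusted p = 0.799). The control value fell within the injured range in Astro and above it in OPC. Without injured replicate 2 the Astro value turned to -0.11. *VEGFA* had a UMI in 33.3%, 34.7% and 35.4% of injured astrocytes and in 13.5% of control astrocytes (interval 10.8% to 16.5%). At 1000 UMIs per nucleus these became 11.2% on average and 9.17%, and at 500 UMIs 5.866% and 6.003%. The gap in observed shares therefore closed at equal depth.

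Among the remaining cell types *VEGFA* was 23.4, 29.8 and 41.1 CPM in injured Endo against 44.1 CPM in control, where in each injured library its level was higher in the fibroblast-list clusters (58.3 to 111.1 CPM, 49.0 CPM in control) than in the endothelial-list clusters (14.2 to 20.7 CPM, no UMI in the 26 control nuclei). It was 8.81 to 13.8 CPM in ExN against 11.9 CPM, and 13.6 to 25.7 CPM in InN against 22.4 CPM. In Oligo it was 8.22 to 10.1 CPM against 3.91 CPM from 5 control UMIs (log2 fold change 1.29, adjusted p = 0.175). In Microglia 1 control UMI left a ratio of 0.43 with a counting interval of 0.075 to 17.1.

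*FLT1* in Microglia went the other way from Endo. It was 105.6, 126.7 and 112.5 CPM in the injured replicates and 570.5 CPM in control (71 UMIs). In the control library this was above the whole Endo label (298.9 CPM) but below its 26 endothelial-list nuclei (2866 CPM). The log2 fold change was -2.06 ± 0.20 and missed the call (adjusted p = 0.0278 in edgeR). No gene at all was called in Microglia by edgeR, of 13470 tested, although 2857 had an unadjusted p below 0.05, and DESeq2 called 139 higher and 165 lower there, *FLT1* among the latter. *FLT1* had a UMI in 43 of 129 control microglia (33.3%, exact interval 25.3% to 42.2%, median 793 UMIs per nucleus). In cell types of like depth it had one in 1.25% of control Oligo nuclei (median 900 UMIs) and in 0 of 171 control OPC nuclei (median 962 UMIs). For OPC the floor of 3 allows a share of nuclei with a UMI of up to 1.75%, and the exact interval up to 2.13%.

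The injured Microglia label was made up of several clusters, and *FLT1* differed between them. In cluster 21 it was 256.1, 359.0 and 247.5 CPM in the injured replicates, with a UMI in 44.6% to 54.8% of nuclei. In cluster 6, which held 47.8% of injured microglia and was led by *MS4A7*, *MRC1* and *CD163* among other genes, it was 32.5, 43.9 and 33.3 CPM. In cluster 16, led by *SKAP1*, *LTB*, *BTLA*, *ICOS* and *CD247* among other genes, it was 75.2, 59.4 and 88.5 CPM. Cluster 16 held 28.7% of the injured nuclei under the label. Its median was 1497 UMIs per nucleus, against 3727 in cluster 6 and 4127 in cluster 21. The word microglia is used here for the study's label. These clusters were drawn from all genes, *FLT1* included, so the differences between them carry no test. *P2RY12*, a marker of resident microglia, was 258.5 CPM on average in cluster 21, 135.9 in cluster 6, 25.5 in cluster 16 and 233.0 in control. *GPR34*, another such marker, was 77.5, 9.25 and 15.5 CPM on average in clusters 21, 6 and 16 and 289.2 CPM in control, so the 2 markers did not order the clusters alike. The study's 5 microglia markers, these 2 among them, summed to 2720 CPM in cluster 21, 3020 in cluster 6, 3212 in cluster 16 and 1784 in control. Cluster 21, where *FLT1* was highest of these injured clusters, was thus the lowest of them by the whole marker list. The macrophage list summed to 3573 CPM in cluster 6, 1987 in cluster 21, 650 in cluster 16 and 1117 in control microglia, where *S100A9* was not listed. With clusters 6 and 16 left out, a choice made after their values were seen, the log2 fold change was -0.80 (adjusted p = 0.202). Over 11 other alternatives the adjusted p ran from 7.45e-06 to 0.114, and 2 of them called it: DESeq2 and the fit without injured replicate 2.

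**Figure D3:**
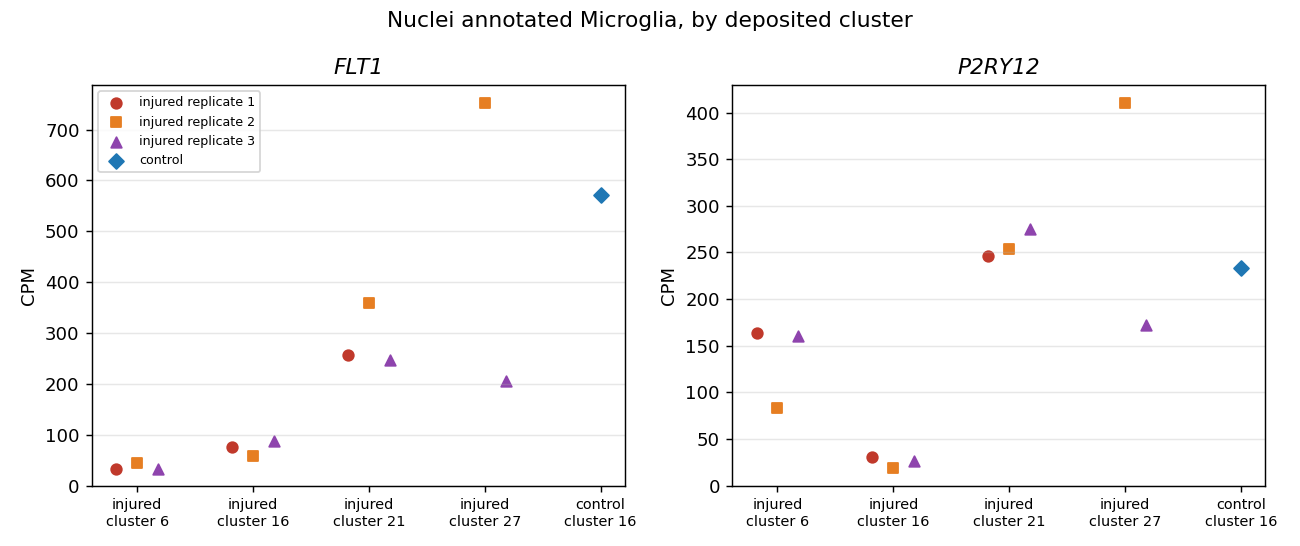
CPM of *FLT1* (left) and *P2RY12* (right) in nuclei annotated Microglia, by the study's cluster, with 1 point per library. Cluster numbers are separate in the 2 cohorts. *FLT1* in injured cluster 21 lies between 247.5 and 359.0 CPM, above clusters 6 and 16, and the control point is at 570.5 CPM. Cluster 27 holds 21 nuclei.

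The endothelial list was uneven in control microglia. *PECAM1*, an endothelial junction gene, had 1 UMI in all 129 nuclei, whereas *ESAM*, an adhesion gene of the same list, had 30 (241.0 CPM, a UMI in 17.8% of nuclei), against 53.9 CPM in control Endo. Both were chosen after their values were seen. The whole endothelial list summed to 393.2 CPM in nuclei with an *FLT1* UMI and 320.1 CPM in those without, from 17 and 26 UMIs. The 30 UMIs of *ESAM* are among these. Control Endo nuclei with an *FLT1* UMI held 9177 CPM of the same list, which in control lacks *CLDN5* and *CLEC14A*. In the injured cohort the endothelial list, there with both genes, stood at 472.1 CPM in microglia with an *FLT1* UMI and 416.9 CPM in those without. Endo nuclei with one held 11609 CPM. The order in microglia was reversed in injured replicate 3 (528.4 CPM with and 560.2 CPM without). Without *PECAM1* and *ABCB1* the list stood at 342.8 CPM in injured microglia with an *FLT1* UMI and 195.0 CPM in those without, and it was higher in those with one in each of the 3 libraries. *ESAM*, at 138.6 CPM on average in injured Microglia, was kept in it, while *PECAM1*, at 181.7 CPM there, and *ABCB1*, at 14.2 CPM, were left out. Leaving these 2 genes out departed from the fixed list, so the values without them are a description. *KDR* had no UMI in control microglia and stood at 2.57 to 5.43 CPM in injured microglia.

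Elsewhere the 2 receptors were low. *FLT1* was 6.15 to 22.3 CPM over Astro, OPC, Oligo, ExN and InN of the injured libraries. In control it was 32.1 CPM in InN, above the 3 injured values (log2 fold change -0.73, adjusted p = 0.102), and 9.25 to 10.96 CPM in Astro, Oligo and ExN. After Endo, *KDR* was highest in InN and OPC, which overlapped (9.84 and 9.55 CPM on average in the injured replicates). In InN it was 7.60, 12.3 and 9.65 CPM in the injured replicates and 10.4 CPM in control, and in ExN it was 1.97 to 2.50 CPM against 1.23 CPM (21 UMIs, log2 fold change 1.01, adjusted p = 0.0860). *KDR* had no control UMI in Astro, OPC, Oligo and Microglia. Against 3 UMIs over the control sum the ratio was 1.18 in Oligo and below 1 in the other 3. The Oligo ratio rested on injured replicate 3 (1.76, 2.28 and 4.76 CPM in the injured replicates), so no direction is given in any of the 4. *FLT1* and *ANGPT1* had no control UMI in OPC, with bounds below 1 as well. *ANGPT1* in Microglia rested on 2 control UMIs (ratio 0.30, counting interval 0.081 to 2.48).

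**Figure D4:**
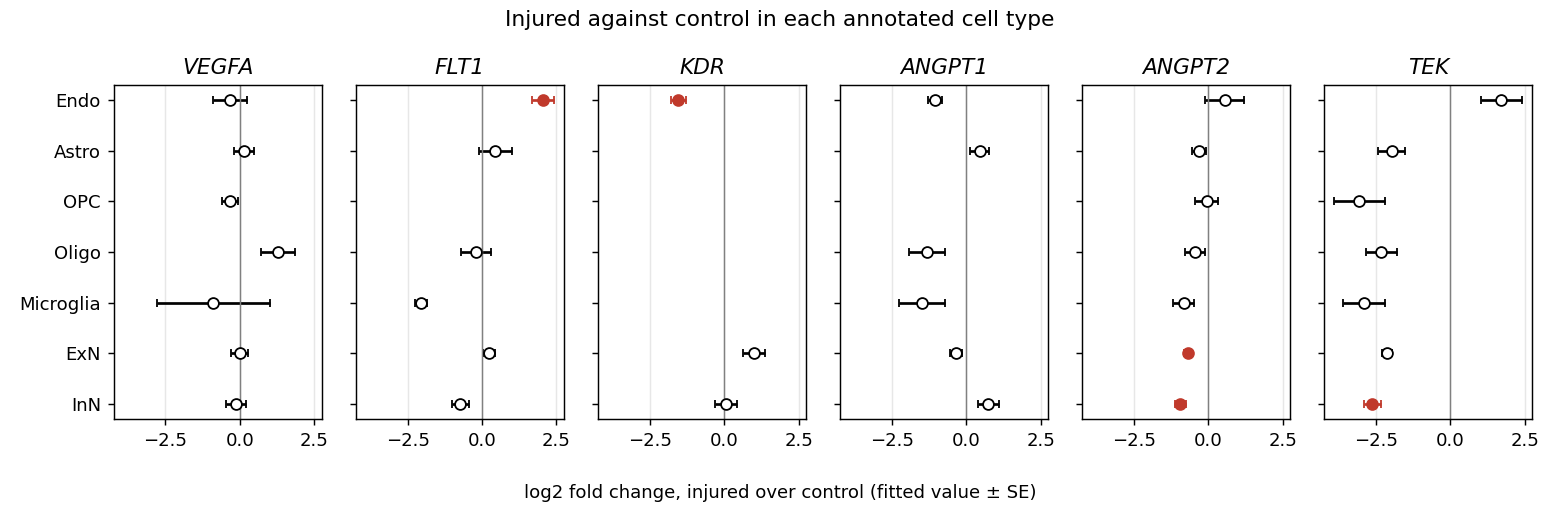
Fitted log2 fold change of injured over control with its SE for each gene and cell type, red and filled where called. Pairs without a control UMI are left out. The called pairs are *FLT1* in Endo (2.06), *KDR* in Endo (-1.54), *ANGPT2* in ExN (-0.69) and InN (-0.94) and *TEK* in InN (-2.62).

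Whether injury moved a gene differently between cell types was tested as an interaction over all 28 sums, with library as a block. For *TEK* the effect in Endo exceeded that in Astro by 3.71, in OPC by 4.74, in Oligo by 4.06, in ExN by 3.85 and in InN by 4.34 on the log2 scale (adjusted p = 0.000125 to 0.00791 in edgeR). The Endo side of each rests on 4 control UMIs. For *FLT1* the effect in Endo exceeded that in Microglia by 4.07, in ExN by 1.84 and in InN by 2.79 (adjusted p = 7.04e-07 to 0.00148). For *KDR* it was lower in Endo than in ExN by 2.50 (-2.50, adjusted p = 0.00263). These were 9 called differences of 36 tested. When 1 injured replicate was left out, 5 to 8 of the 36 were called, which need not be among these 9. The 3 for *FLT1* and those of *TEK* against ExN and InN were called each time, while *TEK* against OPC was lost each time, *TEK* against Astro and Oligo without replicate 2 or 3, and *KDR* without replicate 1 or 3. Over all 14772 genes, 3.28%, 1.44%, 2.65%, 2.43%, 2.73% and 2.33% were called in Endo against Astro, OPC, Oligo, Microglia, ExN and InN. None of the 6 for *ANGPT2* in Endo was called by edgeR (1 with an unadjusted p below 0.05 against each of ExN and InN), nor any of the 12 for *VEGFA* and *ANGPT1* in Astro, where 3.28%, 0.0609%, 0.19%, 1.41%, 0.663% and 0.514% of all genes were called against Endo, OPC, Oligo, Microglia, ExN and InN (unadjusted p below 0.05 for *ANGPT1* against Endo and Oligo). The make-up of Endo also differed between the cohorts, and its part in these differences was not tested.

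The order of cell types is given as a description, and the share of all genes that separate in this way was not counted. Over the injured animals, Endo was separate from the next cell type for *FLT1*, *KDR*, *ANGPT1* and *TEK*, with no overlap between libraries. For *FLT1* this follows in part from its use in naming the label. Within injured Endo, *KDR* and *ANGPT1* were higher in fibroblast-list nuclei (342.3 and 393.0 CPM on average) than in endothelial-list nuclei (189.2 and 100.8 CPM). For *VEGFA*, OPC and Astro overlapped each other and were separate from Endo, the third. For *ANGPT2* the first 4 cell types (Endo, OPC, Oligo and Astro) overlapped in steps and were separate from Microglia, ExN and InN. In the control library Endo was first for *KDR* and *ANGPT1* alone.

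Other genes of the system were read from a list of 12 (*FLT4* was not listed for control). In Endo 10 were tested, and 2 were called higher and none lower. These were *TIE1*, an orphan receptor that pairs with TEK (115.2 CPM on average in the injured replicates, 14.7 in control from 3 UMIs, log2 fold change 3.099 ± 0.56, adjusted p = 0.00699), and *PTPRB*, the endothelial phosphatase that dephosphorylates TEK (300.6 and 58.8 CPM, 2.49 ± 0.37, adjusted p = 0.00293). Both are endothelial genes, and in the endothelial-list clusters alone their fitted values with TMM factors were 1.34 and 0.90, neither called. The median over the 11257 genes of that fit was 5.42, and 3 of them were called higher. Their levels there were 217.6 and 534.0 CPM on average in the injured replicates, against 145.7 and 485.8 CPM in control, from 3 and 10 UMIs. Over the other alternatives *TIE1* in Endo was called in 6 of 10 and *PTPRB* in 9 of 11. The lymphatic ligand *VEGFC* was 93.4 and 24.5 CPM in Endo (log2 fold change 2.08, adjusted p = 0.0729), and the other ligands *VEGFB*, *VEGFD* and *PGF* had log2 fold changes of -0.42, 0.50 and 0.80. The co-receptors *NRP1* and *NRP2* had 0.43 and -0.34, *ANGPTL4* 0.20 and *SVEP1* -1.20, none of them called. *ANGPT4* was not tested in Endo, with 0.16 CPM in injured nuclei, and *FLT4* stood at 5.18 CPM there. The median over the 10 was 0.46, beside 0.26 over all genes tested in Endo.

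In the 6 other cell types no gene of that list was called by edgeR, of 8 to 10 tested in each, with 0 to 4 at an unadjusted p below 0.05 in each cell type, and DESeq2 called 1, in Microglia. *NRP2* in Microglia was 265.7 ± 14.2 CPM (SD, n = 3) in the injured replicates and 56.2 CPM in control (7 UMIs, log2 fold change 2.49, adjusted p = 0.0302). *NRP1* there was 208.4 CPM on average against 8.03 CPM from 1 control UMI, and over all injured nuclei of cluster 6 it was 317.0 CPM, against 50.4 CPM in cluster 21.

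Of 15 hypoxia and VEGFA-regulating genes tested in Endo, 3 were called higher: *EPAS1*, the HIF2 alpha subunit of endothelial cells (845.4 and 215.6 CPM, log2 fold change 2.10, adjusted p = 0.00181), *SLC2A1*, the glucose transporter of the barrier (925.1 and 142.1 CPM, 2.84, adjusted p = 0.000954), and *PGK1*, a glycolytic enzyme (105.3 and 19.6 CPM, 2.56, adjusted p = 0.00472). *NDRG1*, a stress response gene, was called lower (53.8 and 249.9 CPM, -2.07, adjusted p = 0.00155). The median of the 15 was 0.39, or 0.13 with 2 genes without a control UMI at their bound. *SLC2A1* was among the study's endothelial markers, and the part of the label's make-up in its change was not tested. In Astro and OPC, where *VEGFA* was highest, 0 of 14 and 0 of 13 were called by edgeR and 0 by DESeq2, with 3 and 1 at an unadjusted p below 0.05, and their medians were 0.06 and 0.07, beside 0.05 and 0.17 over all genes. Of 13 tested sprouting genes, 2 were called higher in Endo, the shear-responsive factor *KLF2* (262.0 and 34.3 CPM, 3.07, adjusted p = 0.00176) and *MEF2C* (758.3 and 142.1 CPM, 2.55, adjusted p = 0.00113). The sprouting list was drawn up for sprouting and endothelial signalling, so not all of its genes are genes of sprouting. *MEF2C* was higher in ExN than in Endo, at 1313 CPM on average in the injured replicates and 1125 CPM in control. The median of the list in Endo was 2.27, or 1.79 with the 2 genes without a control UMI set at their bound, beside 0.26 over all genes. The general endothelial list had a median of 2.05 in the same label, with 12 of 13 genes positive. In the other cell types no hypoxia or sprouting gene was called by edgeR, with 1 to 8 of each list at an unadjusted p below 0.05, and DESeq2 called 1, in ExN. Besides *PLXND1* in ExN, 3 of these genes missed the edgeR call on the share of nuclei alone. *EPAS1* (2.70, adjusted p = 0.00578, a UMI in 4.48% of injured nuclei) and *KLF2* (3.29, adjusted p = 0.00903, 2.25%) did so in ExN, and *ADM*, a vasodilator peptide gene, in InN (2.93, adjusted p = 0.00300, 9.73%). *PLXND1*, a semaphorin receptor, had 141 UMIs in control ExN (a UMI in 2.50% of nuclei). It was at 0 in every cell type of every injured library, Endo included, so no direction is given for it.

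The genes whose levels ran most like each member were found by the Pearson correlation of log2(CPM + 1) over the 28 sums, among 14662 others. The sums of 1 library share its depth and preparation, so the values are descriptions. *ENG*, *KLF2* and *ARHGAP27* followed *FLT1* (0.95, 0.92 and 0.92). *NR2F2*, *TWIST2* and *SFRP2* followed *KDR* (0.96, 0.93 and 0.92), and *HIF3A*, *ERBB2* and *NDNF* followed *ANGPT1* (0.93, 0.89 and 0.87). *ETV1*, *BEND7* and *GPC5* followed *VEGFA* (0.94 each). *MORF4L1* and *KANK4* followed *TEK* (0.84 each). *ANGPT2* had the weakest likeness, to an unnamed Ensembl gene, *MINDY1* and *GLOD4* (0.82, 0.81 and 0.80). Among the members the highest correlation was 0.67, between *FLT1* and *KDR*, and *VEGFA* with *FLT1* gave -0.26.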

How the data were processed

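The authors counted reads with Cell Ranger 3.1.0 on calJac3 with an Ensembl annotation, filtered nuclei, annotated each cohort separately with Seurat, and deposited raw UMI counts per gene and nucleus with the labels. The tables list 32323 genes (injured) and 16383 (control), and library totals ran from 22832703 to 48722394 UMIs. Doublets had been removed before deposit, by Scrublet in the injured cohort and by limits on genes per nucleus in the control.

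Sums of counts over the nuclei of a cell type in a library were tested with edgeR 4.0.16 (R 4.3.3, quasi-likelihood, TMM factors, filterByExpr, Benjamini-Hochberg over all genes tested). Interactions used all 28 sums with library as a block. DESeq2 1.42.0, other scalings, filters, thinning to 1000 UMIs per nucleus, other nuclei sets and leaving out each injured library were alternatives. The fits were tested on simulated data. Replicates were numbered in accession order and do not pair. Intervals and floors (3 UMIs) cover counting error only. With 1 control library, p-values assume that control libraries vary as the injured ones do. The members and gene lists were chosen with earlier results of these data known. The rule for named genes took the 6 members, the system list, called genes of the hypoxia and sprouting lists, and the 3 genes most alike to each member, of which 1 is not reported here. Marker genes, genes leading a cluster, *MCPH1* and genes that missed a call were named outside it, after their values were seen. Strand use in counting was not given in the sources used here. Sequences and coordinates of calJac3 were not used here.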

Additional observations from a re-analysis of the deposited data

Results flagged for a closer look

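In 9 cases the change between injured and control differed between cell types by an interaction test. For *TEK* the effect in Endo exceeded that in Astro by 3.71, in OPC by 4.74, in Oligo by 4.06, in ExN by 3.85 and in InN by 4.34 on the log2 scale. All of these rest on 4 control UMIs in Endo. For *FLT1* the effect in Endo exceeded that in Microglia by 4.07, in ExN by 1.84 and in InN by 2.79. For *KDR* the difference between Endo and ExN was -2.50. Those of *TEK* against Astro, OPC and Oligo and that of *KDR* were lost without at least 1 of the injured replicates. Endo held 85.6% fibroblast-list nuclei in the control library and 13.8% to 18.7% in the injured libraries, and the part of this in the differences was not tested.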

How the results depend on the processing

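No paired analysis was possible because replicate numbers only follow accession order and the control cohort is 1 library. The 1 gene called higher became 0 with library size alone, at most 2500 genes per nucleus, the marker-based nuclei filter, endothelial-list clusters only and fibroblast-list clusters only. Over all genes, 553 were called higher in Endo in the main fit, 355 with library size alone and 519 at most 2500 genes. Under the marker-based filter 0 were, and in the endothelial-list and fibroblast-list clusters 3 and 10. With so few calls in those fits, a lost call there does not decide whether a difference is absent. The marker-based filter left out 81.8% of control Endo nuclei and 32.6% to 37.9% of injured ones. The 4 called lower became 1 when thinned to 1000 UMIs and 1 under the marker-based filter. Leaving out 1 injured replicate gave 1 higher each time and 2 to 6 lower, the fewest without replicate 1. With library size alone the median over all tested genes, on the log2 scale, was 0.14 in place of 0.26 in Endo and 0.17 in place of 0.42 in Microglia. In Endo, *FLT1* was 1.94 with library size alone, 1.72 at most 2500 genes, 0.20 under the marker-based filter, 0.35 in endothelial-list clusters (-0.39 with library size alone) and 1.596 in fibroblast-list clusters (1.55). *KDR* was 2.57 under the marker-based filter, 2.73 and 1.99 in endothelial-list clusters, each from 1 control UMI, -0.73 and -0.78 in fibroblast-list clusters and -0.99 without the unnamed cluster. *TEK* was -0.45 in endothelial-list clusters with library size alone, and *ANGPT2* -0.15 when thinned. Without each injured replicate in turn *ANGPT2* in Endo ran from -0.026 to 0.76 and *VEGFA* in astrocytes from -0.11 to 0.32, the lowest in both without replicate 2. The 9 differences between cell types became 14 at an adjusted p of 0.05, and 5 to 8 without 1 replicate, the lowest without replicate 3. The 2 system-list genes called in Endo became 1 with library size alone, 1 when thinned, and 0 at most 2500 genes and in either class of cluster, and 1 to 3 without 1 replicate, the lowest without replicate 1. The cluster sets hold fewer nuclei than the whole label, and the cause of these changes was not tested.

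Injured minus control shares of nuclei with a UMI moved at 1000 and 500 UMIs per nucleus, in percentage points. *VEGFA* in Astro went from 21.003 to 2.05 and -0.14, *ANGPT1* in Astro from 13.6 to 1.43 and 0.56, *FLT1* in Endo from 17.9 to 27.005 and 9.12 (85 of 181 control nuclei reach 1000 UMIs, with a control share of 5.33% there and 11.2% at 500), *KDR* from -10.4 to -18.1 at 1000, *ANGPT2* from 6.67 to -3.20 and -0.20, and *TEK* from 8.06 to 4.56 and 0.43. Pairs that were not called turned sign as follows. *VEGFA* gave 0.85 and 0.80 in Endo fibroblast-list clusters, and with at most 2500 genes 0.089 in OPC, 0.29 in ExN and 0.13 in InN. In ExN it also gave 0.0011 without a filter on low counts, 0.0046 under the marker-based filter, and without 1 replicate ran from -0.20 to 0.13 (0.040 without replicate 2). In InN it gave 0.044 under that filter and ran from -0.43 to 0.040 without 1 replicate. *FLT1* in Oligo ran from -0.36 to 0.031 without 1 replicate. *KDR* in InN gave -0.035 with library size alone, -0.12 under the marker-based filter and -0.15 to 0.21 without 1 replicate. *ANGPT1* in Endo gave 0.26 and 0.22 in fibroblast-list clusters. *ANGPT2* in OPC gave 0.0064 without a filter, 0.92 when thinned, 0.13 at most 2500 genes and -0.26 to 0.082 without 1 replicate. The cluster sets were chosen after seeing the data.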
